A study of Mus musculus with 2 samples.

Results

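The transcription factors examined here carry a homeodomain, a forkhead domain, a paired box, a POU domain, a T-box or a Sox-type HMG box. They were taken from the array by the wording of the gene text beside each spot, which had to contain homeo box, homeobox, forkhead, paired box, T-box, SRY-box or POU domain and not the word kinase. This gave 61 of the 3757 probes on the array, each from a different gene entry and with 1 spot per array. The rule itself uses no measured value. RNA came from primary mouse osteoblasts, the bone-forming cells, held in alphaMEM with 0.2% FBS. One culture had received 2 ng/ml of TGF-beta1 over 24 h and the other was untreated. Each of these 2 samples stood on 1 array labelled with Cy3, so there were no replicates, and no test was possible and no p-value is given. The labels name no strain, sex or age of the mice and do not say whether cells of several animals were pooled.

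Homeodomain, forkhead, POU, paired, T-box and Sox proteins bind DNA and set regional and cell identity in the embryo. In the skeleton, Hox genes assign position along the body and the limb, Pax and Meox factors act in the somites that form vertebrae and ribs, and Sox5 and Sox6 act beside Sox9 in cartilage. TGF-beta acts through Smad proteins, which bind DNA weakly and rely on partner factors, among them the forkhead protein Foxh1.

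The study's signal threshold, set at the brightest lambda phage control spot, was 87.4, on the arbitrary scale of the deposited intensities. Both arrays had similar summed signals, 431093 with TGF-beta1 and 427889 without. Of 7 osteoblast markers on the array, 4 exceeded the threshold with TGF-beta1 and 6 without. Their summed signals were 2923 with TGF-beta1 and 3497 without. The largest difference was in Sparc, with 631 with TGF-beta1 and 946 without. The log2 ratio of Sparc, -0.58, turned to 0.14 after subtraction of the median of neighbouring spots. Of the 4 markers detected on both arrays, 1 was higher with TGF-beta1 and 3 were lower. Neither of the 2 chondrocyte markers nor of the 2 neuron markers on the array exceeded the threshold on either array. In skeletal muscle, adipocyte and macrophage and osteoclast lists 4 of 5, 1 of 3 and 1 of 2 markers did so on at least 1 array, and keratinocyte and endothelial lists matched 0 probes. The summed muscle markers were at 1490 with TGF-beta1 and 1799 without. The largest difference was in Tnnc2, with 502 with TGF-beta1 and 808 without. The log2 ratio of Tnnc2, -0.69, became -0.05 after subtraction of the median of neighbouring spots. Myod1 was higher, with 739 with TGF-beta1 and 646 without. These sums thus depend on single spots and their place on the array. The part of cells of these types in the values below was not tested. With bulk RNA, fewer cells of a type and less RNA per cell cannot be told apart.

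A larger share of these factors than of the array as a whole was above the threshold. Fewer were so with TGF-beta1 than without. This order turned to 31 with TGF-beta1 and 30 without when the mean of the lambda spots, 67.0, was the threshold. Shares of all probes above 67.0 are not given, so that turn cannot be read as particular to the members. With TGF-beta1, 23 of the 61 members (37.7%) exceeded the study's threshold, where 23.1% of all 3757 probes did. On the untreated array 29 members (47.5%) exceeded it, where 24.6% of all probes did. The 23 detected with TGF-beta1 were all among the 29, which are thus the members detected on either array, where 26.5% of all probes were. The 6 others, Hoxc9, Uncx, Pou3f2, Zhx1, Sox18 and Sox7, passed it on the untreated array and not on the treated one, and 0 members did the reverse. For such a member the fold is given as a bound, the bright signal over the dim one. The dim one is set no lower than the faintest detected signal of its array. Bounds rest on the deposited signals, and after adjustment for place on the array the difference can be smaller than the bound. Measured log2 ratios of these members are given below as well, though they rest on a treated signal under the threshold. Among all 200 probes detected on 1 array, 129 (64.5%) were detected on the untreated one. How specific each probe is for its gene was not tested.

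Families differed in how many members were detected. Of 13 forkhead probes, 7 exceeded the threshold with TGF-beta1 and the same number without. Of 7 Sox probes, 3 did with TGF-beta1 and 5 without. Of 9 Hox cluster probes, 3 did with TGF-beta1 and 4 without, and of the 24 other homeobox probes 8 and 10 did. Of 3 POU probes, 1 did with TGF-beta1 and 2 without. Of 2 T-box probes, 1 did on both arrays. None of the 3 paired box probes, Pax1, Pax3 and Pax9, was above it on either array. Their signals lay between 14.6 and 34.4 with TGF-beta1 and between 16.3 and 36.8 without.

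**Figure D1:**
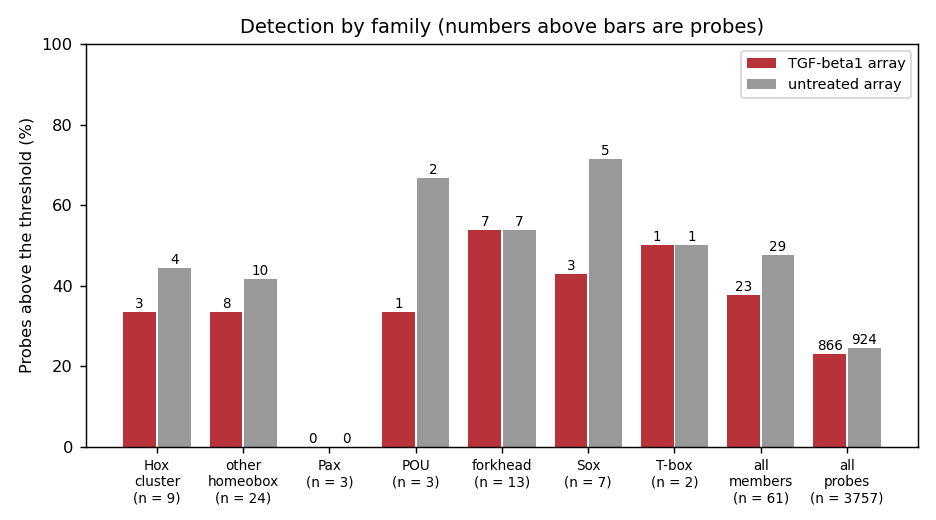
Share of probes above the signal threshold on the TGF-beta1 array (left bars) and the untreated array (right bars) for each family, for all 61 members and for all 3757 probes, in percent, with the number of probes above each bar. Members stood at 37.7% with TGF-beta1 and 47.5% without, against 23.1% and 24.6% of all probes.

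Differences in signal between the arrays were small for most members. At a 2-fold ratio, 0 of the 23 members above the threshold on both arrays were higher with TGF-beta1, where 1.51% of the 795 such probes were, and 0 were lower, where 2.26% were (3.77% in either direction). At 1.5-fold, 1 member was higher, Tbx21, where 7.17% of the probes were. At the same ratio 0 members were lower, where 8.18% were (15.3% in either direction). At any size 16 of the 23 (69.6%) were higher, where 53.2% of the probes were. Thus 22 of the 23 members (95.7%) lay within 1.5-fold, beside 84.7% of all such probes. The log2 ratio of TGF-beta1 over untreated had a median of 0.09 and an SD across members of 0.32, beside 0.03 and 0.44 over the 795 probes. The 8 lambda spots had log2 ratios with an SD of 0.20, the only repeated measure within the arrays and a rough scale. Those spots were dim and lay side by side in the same row and block of the array. Their SD therefore leaves out differences between blocks, whose median log2 ratios ran from -0.49 to 0.38 with an SD of 0.21. Of the 23 members, 13 (56.5%) lay within that distance of 0, beside 40.3% of the 795 probes.

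In the deposited values the brighter members were mostly higher with TGF-beta1, a split that was smaller after adjustment for neighbouring spots. Among the 11 members with both signals above 2 times the threshold, 10 were higher with TGF-beta1, where 56.9% of the 371 such probes were. Their median log2 ratio was 0.25, beside 0.07 over the 371 probes. The exception was the probe named homeo box C5. After loess on mean signal 10 of the 11 were still higher, with a median of 0.15, where 50.9% of the 371 probes were. After subtraction of the median of neighbouring spots 7 of the 11 (63.6%) were, with a median of 0.18, where 55.3% of the probes were. With block medians subtracted 10 of the 11 were, with a median of 0.25, where 55.3% of the probes were. The dimmer 12 members had 6 higher and 6 lower and a median of -0.004, and 212 of the 424 dimmer probes were higher. With neighbour medians subtracted 7 of these 12 members (58.3%) were higher, where 52.4% of the 424 probes were. With block medians subtracted 9 of the 12 members (75%) were, where 48.1% of the 424 probes were. The 6 members detected on the untreated array alone enter none of these counts, since that choice fixes their direction.

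**Figure D2:**
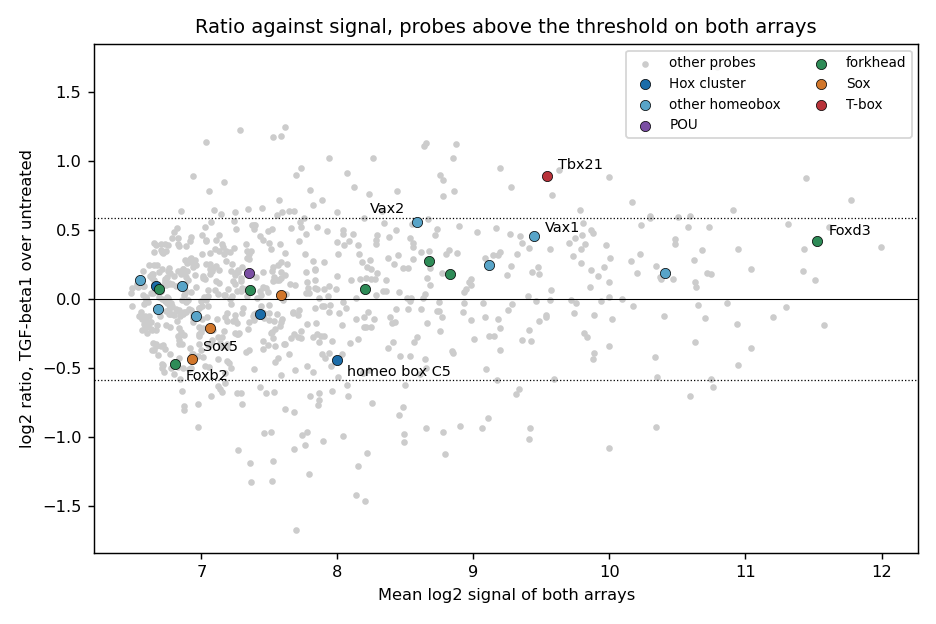
Log2 ratio of TGF-beta1 over untreated signal against the mean log2 signal of both arrays, for the 795 probes above the threshold on both arrays. Grey points are other probes, coloured points the 23 members by family, and dotted lines mark 1.5-fold. Tbx21 alone among the members lies outside the dotted lines, and 10 of the 11 brighter members lie above 0.

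Promoters of the 2 members with the highest ratios and of the 2 with the largest bounds among those with an entry are printed to show the sequence around their starts. RefSeq windows of build GRCm38.p6 run from 250 bases before to 50 after each start and are written 5′ to 3′ on the gene's strand. Capitals mark CAGAC or its reverse complement GTCTG, the core bound by Smad3 and Smad4, and TAATTA, a homeodomain core that reads the same on both strands. The windows are chr11:97115282-97115581 on the minus strand for Tbx21, chr19:59170348-59170647 on the minus strand for Vax1, chr5:139543648-139543947 on the plus strand for Uncx and chr4:22488317-22488616 on the minus strand for Pou3f2.
Tbx21: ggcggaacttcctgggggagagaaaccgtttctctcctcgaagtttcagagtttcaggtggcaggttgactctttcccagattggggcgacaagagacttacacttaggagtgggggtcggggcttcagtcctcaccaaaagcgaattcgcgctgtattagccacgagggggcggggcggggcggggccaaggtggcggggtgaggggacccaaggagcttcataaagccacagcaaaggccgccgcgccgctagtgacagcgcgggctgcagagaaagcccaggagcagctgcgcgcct
Vax1: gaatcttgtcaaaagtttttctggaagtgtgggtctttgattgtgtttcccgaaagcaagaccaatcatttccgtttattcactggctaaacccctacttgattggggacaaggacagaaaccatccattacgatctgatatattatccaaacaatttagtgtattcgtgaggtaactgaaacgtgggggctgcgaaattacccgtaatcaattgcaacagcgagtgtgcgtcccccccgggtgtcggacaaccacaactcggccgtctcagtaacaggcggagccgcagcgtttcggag
Uncx: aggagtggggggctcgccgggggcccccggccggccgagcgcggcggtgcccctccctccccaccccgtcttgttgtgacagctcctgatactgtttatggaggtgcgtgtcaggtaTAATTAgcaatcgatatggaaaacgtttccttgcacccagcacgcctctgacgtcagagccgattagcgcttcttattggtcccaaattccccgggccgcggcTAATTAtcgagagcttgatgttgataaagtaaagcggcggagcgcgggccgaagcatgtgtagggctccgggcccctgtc
Pou3f2: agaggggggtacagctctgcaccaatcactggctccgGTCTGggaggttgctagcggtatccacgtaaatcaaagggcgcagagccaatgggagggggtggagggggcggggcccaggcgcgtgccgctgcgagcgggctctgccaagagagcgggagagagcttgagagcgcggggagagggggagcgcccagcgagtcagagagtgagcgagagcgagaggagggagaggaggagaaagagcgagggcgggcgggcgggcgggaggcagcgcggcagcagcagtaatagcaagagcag

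The windows of Tbx21 and Vax1 held neither motif, that of Pou3f2 held 1 GTCTG at base 38, and that of Uncx held 2 TAATTA cores at bases 118 and 221, and no motifs overlapped. Of the 61 members, 39 had 52 promoter windows in the RefSeq table. CAGAC on either strand was found in 16 of the 52 (30.8%), beside 49.6% of all 32851 windows. The TAATTA core was in 2 of the 52 (3.85%), beside 5.29% of all windows. Members' windows had a median GC content of 59.8% and a median CpG observed-to-expected ratio of 0.68, beside 52.7% and 0.38 over all windows. The median GC content was 60.7% for detected members and 58.7% for members under the threshold on both arrays. Matches of this length are a description of the sequence and not of binding.

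Tbx21 encodes T-bet, a T-box factor known for directing T helper 1 and natural killer cell programmes. Its signal was 1016 with TGF-beta1 and 549 without, 1.85-fold higher, with a log2 ratio of 0.89. That ratio remained between 0.71 and 0.90 under quantile scaling, other scalings, loess, an added offset and subtraction of the median of its block of the array. After subtraction of the median of the 4 detected spots around it, the ratio was 0.18, so nearby spots had similarly high ratios. The other T-box probe, Tbx15, a factor of limb and skeletal development, was under the threshold on both arrays.

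Vax1 and Vax2, paralogous homeodomain factors of the ventral forebrain and eye, both had the higher deposited signal in treated cells. Vax2 had 467 with TGF-beta1 and 316 without, 1.48-fold higher and just short of 1.5-fold. Vax1 had 817 with TGF-beta1 and 595 without, 1.37-fold higher. Place on the array moved the paralogs in opposite ways. The log2 ratio of Vax1 was 0.46 as deposited, 0.72 with the block median subtracted and 0.54 with the neighbours' median subtracted, past 1.5-fold in the first adjustment. That of Vax2 was 0.56 as deposited, 0.25 with the block median subtracted and -0.08 with that of the neighbours, so that its direction turned. Whether the Vax1 and Vax2 probes share signal was not tested.

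The 2 bright LIM homeobox members differed little between the arrays. Lhx6, a factor of cortical interneurons and of jaw mesenchyme, had 1453 with TGF-beta1 and 1273 without, a log2 ratio of 0.19. Lmx1b, which sets dorsal identity in the limb, had 604 with TGF-beta1 and 508 without, a log2 ratio of 0.25. With the block median subtracted these became 0.06 and 0.006, and with the neighbours' median subtracted Lmx1b was at -0.16. Lhx2, another LIM homeobox gene, was under the threshold on both arrays.

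Other homeobox members detected on both arrays were dim, with signals of up to 130. Barx2, a factor of muscle and limb development, had 120.1 with TGF-beta1 and 113 without, and Rax, a gene of the early eye field, had 98.4 with TGF-beta1 and 89.4 without. Lbx2 had 119 with TGF-beta1 and 130 without. Their log2 ratios lay between -0.12 and 0.14. The sign of Lbx2 turned under both position adjustments, so no direction can be read for it.

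A set of genes known from skeletal development was looked up whatever their values. The 7 with a probe were all under the threshold on both arrays. Hoxa10, which acts in osteoblast gene expression, had 33.5 with TGF-beta1 and 42.1 without. Foxc1 and Foxc2, genes of skeletal mesenchyme, had 16.3 and 61.2 with TGF-beta1, against 17.5 and 41.95 without. Pax1 and Pax9, of the sclerotome, had 20.7 and 34.4 with TGF-beta1, against 24.01 and 36.8 without. Sox11 and Pitx1, of which Pitx1 is known from the hindlimb, had 36.1 and 59.4 with TGF-beta1, against 42.4 and 67.4 without. Pitx1 is no member, since its text lacks the words of the rule. The other 14, among them Dlx3, Dlx5, Msx1, Msx2, Prrx1, Prrx2, Alx4, Sox9, Sox4, Foxo1, Tbx2, Tbx3 and Tbx5, matched 0 probes and are not analysed here.

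Uncx and Zhx1 passed the threshold in untreated cells and not in treated ones. Uncx, needed for the rear part of each somite and for ribs and vertebral processes, had 81.2 with TGF-beta1 and 134 without. By its bound Uncx was at least 1.53-fold lower with TGF-beta1 in the deposited signals, a log2 ratio of -0.61. It was the 1 member of the 6 with a bound of 1.5-fold or more, where 14.7% of the 129 such probes had one. Its measured log2 ratio was -0.72 as deposited and -0.50 after either position adjustment, which is smaller than the bound. Zhx1, a zinc finger and homeobox repressor, had 81.8 with TGF-beta1 and 109 without, at least 1.24-fold lower. The measured log2 ratio of Zhx1 was -0.41 as deposited, -0.19 with the block median subtracted and -0.14 with the neighbours' median subtracted. Both adjusted values are smaller than its bound, a log2 ratio of -0.31.

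Of the Hox genes detected on both arrays, homeo box C5 was lower with TGF-beta1, Hoxb1 was close to equal and Hoxd10 turned with position. Hoxc9, detected on the untreated array alone and so lower by that choice, lay beside homeo box C5 on the array. The probe named homeo box C5, for which no current symbol was matched, had 219 with TGF-beta1 and 297 without, 1.36-fold lower. Hoxc9, a gene of thoracic identity, had 77.8 with TGF-beta1 and 128 without, at least 1.46-fold lower. In the same block, F1, Hoxb1, a hindbrain segment gene, had 105 with TGF-beta1 and 98.5 without, a log2 ratio of 0.09. Position adjustments left the values of homeo box C5 and Hoxc9 about where they were. As adjacent spots, each entered the neighbour median of the other. Since the direction of Hoxc9 was fixed by its detection, no shared change can be read from the pair. The log2 ratio of homeo box C5 was -0.44 as deposited, -0.47 with the block median subtracted and -0.43 with the neighbours' median subtracted, and that of Hoxc9 was -0.72, -0.74 and -0.70. The probe for homeo box C5 kept the lower signal under the 8 ways of scaling or adjusting the ratio.

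Hoxd10, a limb and lumbar gene, had 166 with TGF-beta1 and 179 without, and the block and neighbour adjustments turned its log2 ratio of -0.11 to 0.28 and 0.33. It lay in block F4, whose detected probes had a median log2 ratio of -0.39. Hoxa10, Hoxb13, Hoxc4, Hoxd1 and Hoxd8 were under the threshold, between 30.5 and 62.3 with TGF-beta1 and between 30.1 and 58.7 without.

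The same 7 forkhead genes were detected on both arrays, with 6 of the 7 detected members higher with TGF-beta1 and 1 lower, or 4 and 3 after subtraction of neighbour medians. Foxd3, a factor of neural crest and pluripotent cells, had 3419 with TGF-beta1 and 2554 without, 1.34-fold higher. The log2 ratio of Foxd3 was 0.42 as deposited, 0.10 after quantile scaling and 0.19 after loess. Foxq1, a gene of hair differentiation, had 448 with TGF-beta1 and 371 without, and its log2 ratio of 0.27 stayed between 0.20 and 0.28 under the alternatives. Foxe3, a lens gene, had 484 with TGF-beta1 and 428 without, a log2 ratio of 0.18. That ratio became 0.04 with the block median subtracted and 0.50 with the neighbours' median subtracted.

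The remaining detected forkhead genes were near equal or turned with position. Foxf2, of palate and gut mesenchyme, had 303 with TGF-beta1 and 288 without. Foxo3, a factor that insulin signalling keeps out of the nucleus, had 168 with TGF-beta1 and 159.9 without, and Foxn1, the thymic epithelial gene of the nude mouse, had 106 with TGF-beta1 and 101 without. These 3 log2 ratios were 0.07, and each turned below 0 after subtraction of neighbour medians. Foxb2, a brain gene, was the 1 detected forkhead member that was lower, with 95.1 with TGF-beta1 and 132 without, 1.39-fold lower. It lay in block C4, the lowest of the 48 blocks with a median log2 ratio of -0.49, and its log2 ratio of -0.47 became 0.01 with that median subtracted and 0.27 with the neighbours' median subtracted. Foxc1, Foxc2, Foxd1, Foxd2, Foxh1 and Foxm1 were under the threshold on both arrays.

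Of the 3 Sox genes detected on both arrays, Sox5 and Sox6 had lower signals with TGF-beta1 and Sox2 was nearly equal, and of these Sox5 stayed lower under both position adjustments. Sox5 and Sox6, the SoxD partners of Sox9 in cartilage, had 105 and 125 with TGF-beta1, against 142 and 144 without. Their log2 ratios were -0.43 and -0.21, and became -0.21 and 0.02 with the block median subtracted. With the neighbours' median subtracted they were -0.10 and 0.15. Sox2, Sox5, Sox6 and Sox7 lay side by side in block E2, so most pairs of them entered each other's neighbour medians. Sox2, a gene of pluripotent and neural progenitor cells, had 194 with TGF-beta1 and 189.9 without, a log2 ratio of 0.03. The order of these 4 ratios, with Sox2 highest and Sox5 lowest, does not depend on the block median that they share.

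Sox18 and Sox7, SoxF factors of endothelial cells, passed the threshold in untreated cells and not in treated ones. Sox18 had 49.97 with TGF-beta1 and 99.6 without, at least 1.14-fold lower. The measured log2 ratio of Sox18 was -0.995, the lowest of any detected member, and it became -0.61 and -0.41 after the block and the neighbour adjustment in block D4, whose median was -0.38. Sox7 had 78.4 with TGF-beta1 and 88.5 without, so close to the threshold that its bound is next to 1, and its log2 ratio of -0.18 turned above 0 under both position adjustments. The untreated signal of Sox7 was within 10% of the threshold, the only member of the 29 whose brighter signal was so close. Sox1 and Sox11 were under the threshold on both arrays, between 28.1 and 36.1 with TGF-beta1 and between 31.8 and 42.4 without.

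The POU class 3 genes are known from brain and inner ear. Pou3f2, a neural factor detected on the untreated array alone, had 74.8 with TGF-beta1 and 119 without, at least 1.35-fold lower. Its measured log2 ratio of -0.66 became -0.54 with the block median subtracted and -0.13 with the neighbours' median subtracted. The latter is smaller than its bound, a log2 ratio of -0.44. Pou3f4, of the inner ear mesenchyme, had 174 with TGF-beta1 and 153 without, a log2 ratio of 0.19, which became 0.48 and -0.03 after the same adjustments. Pou2f2, a lymphoid POU gene, was under the threshold on both arrays.

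**Figure D3:**
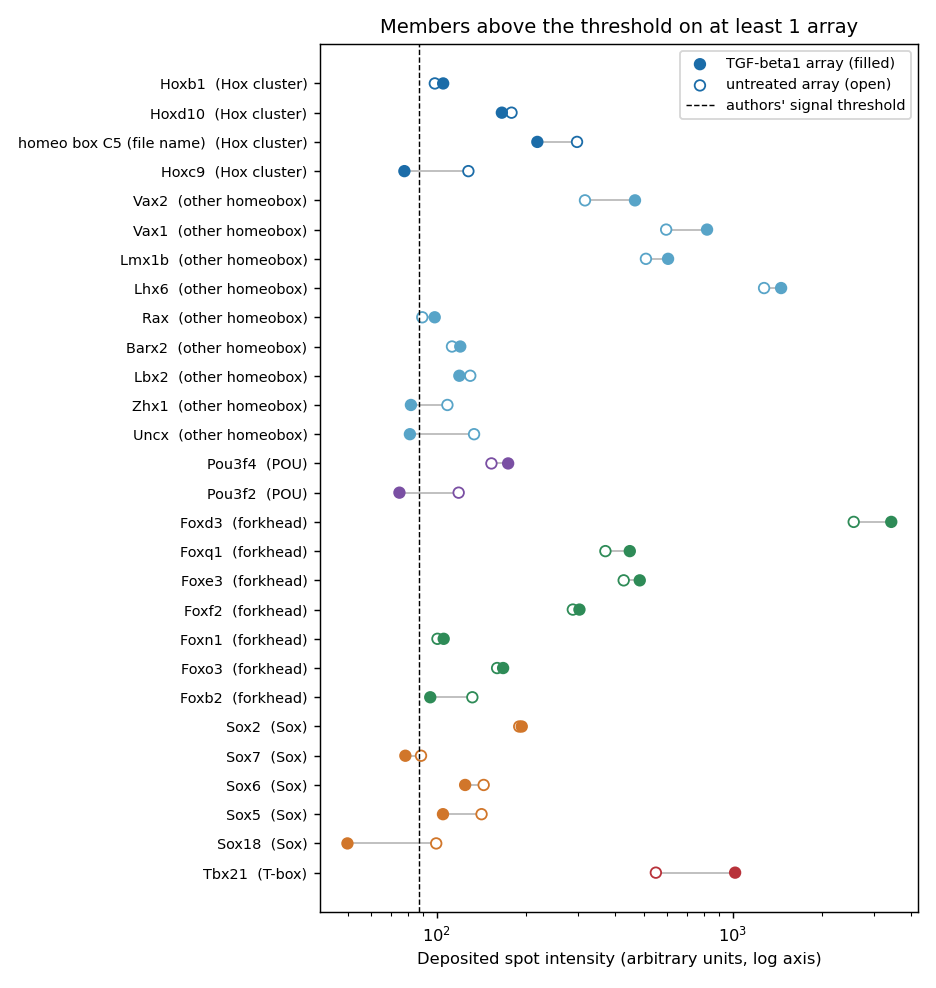
Deposited spot intensity of 28 of the 29 detected members, on a log axis, with filled circles for the TGF-beta1 array, open circles for the untreated array and the family in brackets. The dashed line is the threshold of 87.4, and 6 members cross it, each with the filled circle on the lower side.

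**Figure D4:**
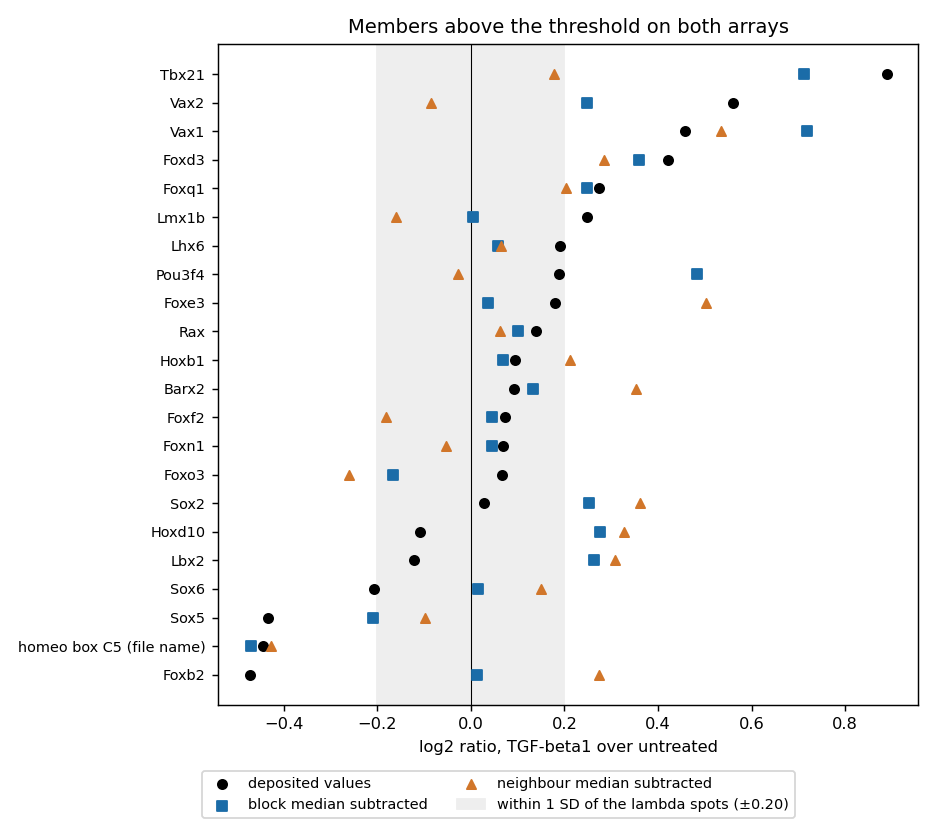
Log2 ratio of TGF-beta1 over untreated for 22 of the 23 members above the threshold on both arrays, as deposited (circles), with the median of the probe's block subtracted (squares) and with the median of its neighbours subtracted (triangles). The grey band spans 1 SD of the lambda spots, 0.20, and leaves out differences between blocks. The values of Vax1, Foxd3, Foxq1 and homeo box C5 lie outside the band on the same side in all 3 forms.

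Among the 32 members under the threshold on both arrays, signals reached 74.1 with TGF-beta1 and 68.0 without, and none came within 10% of the threshold. Besides those named above, they included Cdx4, Esx1, Hlx, Hmx1, Meox1, Mixl1, Mnx1, Pknox1, Prox1, Rhox6, Six6 and Zeb2. Nothing can be said of their response at these signals.

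Partners and regulators of these factors were measured on the same arrays. Of 21 genes on the array from a list of cofactors and corepressors, 6 were detected on each array, with 3 higher and 3 lower and a median log2 ratio of -0.05. At 1.5-fold, 1 was lower and 0 were higher. This was the histone deacetylase Hdac1, which acts in corepressor complexes, with 291 with TGF-beta1 and 557 without, 1.91-fold lower. The log2 ratio of Hdac1 was -0.94 as deposited and -0.96 and -1.06 after the block and the neighbour adjustment, in block F1, which also holds homeo box C5 and Hoxc9. Hdac7, another histone deacetylase, had 1738 with TGF-beta1 and 1430 without, a log2 ratio of 0.28. Of 13 skeletal transcription factors of other families with a probe, 2 were detected on each array, and both differed by less than 1.5-fold. They were Fosl1, an AP-1 subunit, at a log2 ratio of -0.10, and Ets1 at -0.21.

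Polycomb proteins keep Hox genes silent. Of 9 genes on the array from a list of Polycomb and other chromatin regulators, 1 was above the threshold. Bmi1, a Polycomb subunit, had 425 with TGF-beta1 and 432 without, a log2 ratio of -0.02. Of 14 textbook targets of Sox, Dlx, Msx, Fox and Pax factors on the array, 4 were above it with TGF-beta1 and 6 without. None of the 4 on both arrays passed 1.5-fold. Of these 4, 2 were higher and 2 lower, and their median log2 ratio was 0.18. Over all 6, with those on the untreated array alone at their bounds, the median was -0.13, with 2 higher and 4 lower. Ibsp and Col11a1, on the untreated array alone, are lower by that choice, so the values over all 6 give no direction for the list. Ibsp, a bone sialoprotein gene with homeodomain sites in its promoter, had 47.9 with TGF-beta1 and 239.9 without, at least 2.74-fold lower. Col11a1, a cartilage collagen gene and target of Sox9, had 65.5 with TGF-beta1 and 104 without, at least 1.18-fold lower, and Gadd45b, a growth arrest gene, had 211 with TGF-beta1 and 312 without. The log2 ratio of Gadd45b, -0.57 as deposited, turned to 0.11 with the neighbours' median subtracted.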

How the data were processed

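Per the labels, RNA of each culture was labelled with Cy3 and hybridised to 1 array. Spot intensities were used as deposited. Per the file headers, they came from an Atlas Iris 1.01 workbook for the Atlas Glass Mouse 3.8 array and had a normalization named global, with a signal threshold at the brightest lambda spot. Some values lie below 0, as after background subtraction. The authors also deposited a ratio for each spot, and 3754 of 3754 ratios matched the quotient of treated and untreated signals within 0.0001. Spots received probe identifiers through the ratio file, whose 3774 lines held the same ratios as the sheet with gene texts, line by line. Another 16 workbook columns, with sample names that no label gives, were not used. The 17 control spots were left out.

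The main value was log2 of the treated over the untreated intensity, with nothing added. No test was run. Detection meant a signal above 87.4, and folds of 2 and 1.5 were counted among probes above it on both arrays. A bound set the dim signal at the lowest detected signal of that array, or at its own if higher. Symbols came from accessions through a RefSeq table of GRCm38.p6, for 60 of 61 members. The named members are all those detected on at least 1 array, with a set of skeletal genes given whatever their values. A few genes are counted but not reported here by name. Of each gene list up to 3 detected genes with the largest ratios are named. The members, the 4 gene lists and the 8 marker lists were chosen with earlier results of these data known. Block and neighbour medians were taken over probes detected on at least 1 array, with neighbours within 2 rows and 2 columns of the same block. The computations ran in Python 3.11.15 with pandas 2.3.3 and statsmodels 0.14.6, and the calls were tested on simulated data. There only bright probes were changed, with a noise below the SD of the lambda spots. The simulation therefore says nothing of calls on dim members. The number of arrays limits the precision.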

Additional observations from a re-analysis of the deposited data

How the results depend on the processing

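Quantile scaling, division by the median of detected probes or by the total signal, loess with a span of 0.4, an offset of 96.7 and the authors' deposited ratio left the counts of members past 2-fold and 1.5-fold as reported. None of these moved the median over all detected probes by over 0.1. The 1 member at least 1.5-fold higher became 2 with block medians subtracted, Tbx21 and Vax1, and 0 with neighbour medians subtracted. Of the 795 probes above the threshold on both arrays, 55 were so with block medians subtracted and 95 with neighbour medians subtracted. Direction was turned in 5 of 23 members by block medians, in 10 by neighbour medians and in 1 by quantile scaling. With the mean of the lambda spots, 67.0, as the threshold, 3 members were at least 1.5-fold lower, Hoxc9, Uncx and Pou3f2. In the main setting they were detected on the untreated array alone, a choice that fixes their direction. With no filter on dim probes 10 were, of which 4 were at least 2-fold lower, all 4 under the main threshold. The median log2 ratio of all 61 was then -0.10, against 0.09 for the 23. At 2 times the threshold 11 members were detected with TGF-beta1 and 12 without. Shares of all probes are not given for the turned directions, the lambda mean, the no-filter setting or 2 times the threshold. Those counts cannot be read as particular to the members. Every member names a transcription factor, so leaving out others removed 0. Chosen after the data were seen, 17 further homeodomain and POU genes whose texts lack these words added 1 gene at least 1.5-fold lower. The no-filter setting gives no count of detected members and was not run for it. No paired analysis was possible because each group held 1 sample, and leaving out a replicate was not possible for the same reason.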
